A study of Homo sapiens with 44 samples.

Results

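The change of relative N6-methyladenosine (m6A) enrichment after 1 day of METTL3 inhibition was measured in Kelly cells, an established human neuroblastoma line labelled as MYCN-amplified and wild type. It rests on 12 of the 44 libraries of the series, taken by cell line, day, treatment and library type from the labels. Cultures received 8 µM STM2457, a small-molecule inhibitor of the RNA methyltransferase METTL3, or the solvent DMSO alone. The 4 groups were DMSO input, DMSO RIP, STM2457 input and STM2457 RIP, with 3 libraries each. Input libraries are RNA-seq of sonicated poly(A) RNA, and RIP libraries hold the fragments that an m6A antibody pulled down from such RNA. The labels do not say whether replicates came from separate cultures, so p-values measure the spread between these samples, which may be technical. Whole cultures were measured, so a large change in a share of the cells and a smaller change in every cell cannot be told apart.

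m6A is deposited on nascent mRNA in the nucleus by a complex of the catalytic subunit METTL3 with METTL14 and WTAP. The complex favours the sequence GGACU, written GGACT in DNA letters, within long internal exons and around the stop codon, and exon junction complexes keep it away from the ends of exons near splice sites. Short, densely spliced housekeeping mRNAs therefore tend to carry little m6A, and mRNAs of developmental regulators often carry much. The mRNAs encoded by the mitochondrial genome are made inside the organelle, away from the nuclear writer complex. The mark is known for its effects on mRNA decay, splicing and translation through reader proteins such as YTHDF2.

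Enrichment of a gene is a log2 ratio, with its level in 1 RIP library on top and the average level in the same treatment's inputs below, both as library-scaled counts (CPM) with edgeR's TMM factors. The enrichment change is the STM2457 value minus the DMSO value on the log2 scale, so 1 is a 2-fold rise of the ratio and -1 a 2-fold fall. TMM scaling sets most genes to little change, so each value says how a transcript moved relative to the others in the same libraries. A general loss of m6A from all transcripts by the same factor would not appear in it. When the RIP libraries were scaled instead on the 13 mitochondrially encoded mRNAs, the median of all genes moved from -0.028 to -1.467. All changes below are relative to the median transcript unless that scaling is named.

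The inputs held 24.07 to 26.56 M counts assigned to genes and the RIP libraries 25.86 to 36.50 M. The 3 STM2457 RIP libraries stood apart from each other more than those of any other group. Their Pearson correlations over genes were 0.880 to 0.928, against 0.975 to 0.980 among DMSO RIP libraries and 0.993 to 0.997 among inputs. Their common biological coefficient of variation was 0.8, against 0.354 in DMSO RIP and 0.0848 and 0.056 in the DMSO and STM2457 inputs. Among 9354 genes whose inputs averaged 10 CPM or more, 36, 35 and 2 had no count in STM2457 RIP replicates 1, 2 and 3, and 0, 1 and 5 had none in the DMSO RIP replicates. All 12 neuroblastoma markers were expressed in every input, led by CHGA and MYCN. Of 16 markers of other cell types, 5 had no count in any DMSO input and 7 none in any STM2457 input, and their summed level was 13.1 to 17.9 and 10.7 to 12.5 CPM. The mitochondrially encoded mRNAs took 0.794, 0.906 and 0.92% of the DMSO RIP counts and 2.3, 2.48 and 2.4% of the STM2457 RIP counts, against 2.71 to 3.09% of the inputs.

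Of 19923 genes in the tables, 13669 passed the low-count filter. Relative enrichment rose with STM2457 for 1303 of them, 9.53% of those tested, and fell for 1042, which was 7.62%, at an adjusted p under 0.05 by edgeR's quasi-likelihood interaction test with Benjamini-Hochberg adjustment. At least 2-fold changes made up 804 of the rises and 408 of the falls. The change lay mainly in the RIP libraries. The median RIP change was 0.95 for risen genes and -0.77 for fallen ones, and their median input change was -0.16 and 0.08. RIP moved more than input for 1281 of the risen and 962 of the fallen genes. The ratios of the treated and control RIP libraries did not overlap for 1300 of the risen and 1029 of the fallen genes. Lack of overlap in a called gene thus adds little to its call, and it was not counted over all genes tested.

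The split between rises and falls depended on the scaling. DESeq2-type RLE size factors gave 1538 rises and 793 falls, and the mitochondrial reference gave 13 and 8356, so both directions describe positions within the transcriptome and not absolute gains or losses. A voom fit with weights by library type called 979 rises and 986 falls, of which 1686 were calls shared in direction with the 2345 above. It weights inputs and RIP libraries apart but treats the RIP libraries of both treatments alike. The larger spread of the STM2457 RIP libraries was therefore not fitted by itself. Leaving out an STM2457 RIP library raised the falls to 1507, 1591 and 1681 for replicates 1, 2 and 3. Leaving out an input lowered them, to 644 without DMSO input 3, 661 without STM2457 input 1 and 666 without STM2457 input 3.

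The last 120 coding bases before the end of the protein-coding sequence, a region known for high m6A, were read from GRCh38 by the GENCODE 44 canonical transcripts. They are shown for 3 genes whose relative enrichment fell and 3 whose enrichment rose, chosen after their values were seen, each with this window in 1 exon. Capitals mark GGACT on the transcript strand, the only strand searched because the antibody binds RNA. MIDN (chr19:1257150-1257269, plus strand), GDE1 (chr16:19503473-19503592, minus strand) and WTAP (chr6:159755489-159755608, plus strand) hold 1 match each. RPLP0 (chr12:120196776-120196895, minus strand), PSMB6 (chr17:4798300-4798419, plus strand) and MT-CO2 (chrM:8147-8266, plus strand) hold none.
MIDN: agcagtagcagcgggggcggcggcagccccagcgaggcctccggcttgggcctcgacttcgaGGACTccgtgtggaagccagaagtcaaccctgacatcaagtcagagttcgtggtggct
GDE1: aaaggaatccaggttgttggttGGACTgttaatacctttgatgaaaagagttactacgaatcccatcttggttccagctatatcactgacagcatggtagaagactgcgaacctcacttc
WTAP: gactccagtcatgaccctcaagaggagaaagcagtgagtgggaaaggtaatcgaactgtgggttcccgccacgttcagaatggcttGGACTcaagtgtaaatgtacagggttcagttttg
RPLP0: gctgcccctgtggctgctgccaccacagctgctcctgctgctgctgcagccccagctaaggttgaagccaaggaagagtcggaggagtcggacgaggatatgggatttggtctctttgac
PSMB6: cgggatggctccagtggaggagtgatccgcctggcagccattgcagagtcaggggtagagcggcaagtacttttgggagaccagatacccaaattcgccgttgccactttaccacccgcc
MT-CO2: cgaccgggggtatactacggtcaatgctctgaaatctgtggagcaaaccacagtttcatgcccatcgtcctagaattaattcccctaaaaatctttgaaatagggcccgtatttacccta
The GC content of these windows was 65.0% in MIDN, 42.5% in GDE1, 49.2% in WTAP, 60.0% in RPLP0, 59.2% in PSMB6 and 45.0% in MT-CO2. Over all 13349 genes with such a window, 13.2% held GGACT. The share was 16.1% of the fallen genes and 11.3% of the risen genes, so most genes of either direction had no match in this window, and the 6 examples are not typical in that respect. A match is a run of letters and not a measured m6A site.

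The windows differed more in where exons end. A splice junction lay inside them in 57.5% of risen genes, 28.3% of fallen genes and 35.9% of all genes. Their median GC content was 49.2% in risen, 57.5% in fallen and 52.5% in all genes. Among the 4790 genes with a junction in the window, 15.5% rose and 6.01% fell, and the median change was 0.12. Among the 8559 genes without one, 6.4% rose and 8.54% fell, with a median of -0.09.

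Genes of the basic cell machinery made up the clearest class of rises. All 13 mitochondrially encoded mRNAs rose, with a median change of 1.44, while the mitochondrial scaling sets this median to 0.00 by construction. Of 85 tested cytosolic ribosomal protein genes of 88, 70 rose and 2 fell, with a median of 1.19. Among 79 tested nuclear-encoded subunits of the respiratory chain of 84, 56 rose and 0 fell, with a median of 1.17. The fall count stood at 2 without STM2457 RIP 3. Proteasome subunits showed 20 rises and 2 falls among 35 tested of 39, with a median of 1.23. Over all genes the median was -0.03, and 9.53% rose. The medians of these 3 nuclear-encoded lists turned to -0.25, -0.28 and -0.21 with the mitochondrial reference, still far above the -1.467 of all genes.

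MT-CO2 encodes a subunit of cytochrome c oxidase. Its log2 ratio was -2.56, -2.38 and -2.36 in the DMSO RIP libraries and -0.90, -0.74 and -0.76 with STM2457, a change of 1.63 (SE 0.0881). The treated libraries lay above all controls without overlap. MT-ND2, a complex I subunit, went from -0.59, -0.52 and -0.41 to 0.83, 0.92 and 0.95, a change of 1.40 (SE 0.0749). MT-CYB of complex III changed by 1.42 (SE 0.0703). Adjusted p-values (edgeR, Benjamini-Hochberg) were 5.52e-07 for MT-CO2, 5.52e-07 for MT-ND2 and 3.81e-07 for MT-CYB. The inputs of these mRNAs hardly moved, with log2 input changes of 0.08, 0.04 and 0.11. Changes over the 13 mRNAs ran from 1.25 to 2.01.

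RPLP0, a protein of the ribosomal stalk, was strongly depleted from the pulldown in both conditions. Its log2 ratio was -4.52, -4.47 and -4.55 with DMSO and -3.32, -3.41 and -3.34 with STM2457. The depletion became smaller in every treated library, by a change of 1.15 (SE 0.0709; edgeR, Benjamini-Hochberg adjusted p 1.14e-06). RPL37A of the large subunit changed from -4.21, -4.19 and -4.26 to -2.57, -2.74 and -2.71 (1.55, SE 0.0851). RPS18 of the small subunit changed by 1.15 (SE 0.0667). The 2 members that fell were RPL13 (-0.67) and RPL29 (-0.58), both large-subunit genes. Many ribosomal protein genes have processed pseudogenes with near-identical sequence, so their levels are uncertain where reads could be split. With the mitochondrial reference RPLP0 and RPS18 both stood at -0.29 and RPL37A at 0.11.

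Among the respiratory chain subunits encoded in the nucleus, NDUFA1 of complex I had ratios of -0.54, -0.43 and -0.41 with DMSO and 1.08, 1.11 and 1.13 with STM2457. It crossed from depleted to enriched in all 3 treated libraries, a change of 1.57 (SE 0.133). NDUFS5, also of complex I, rose by 1.52 (SE 0.0971), and UQCRH of complex III by 1.28 (SE 0.085). The proteasome gene PSMB6, a catalytic subunit of the core particle, went from -1.43, -1.46 and -1.31 to 0.38, 0.37 and 0.03 (1.67, SE 0.131; edgeR, Benjamini-Hochberg adjusted p 5.87e-06). PSMC4 and PSMC3, ATPases of the regulatory particle, rose by 1.57 (SE 0.113) and 1.41 (SE 0.0842). Their inputs fell at the same time, with log2 input changes of -0.46 for PSMB6, -0.41 for PSMC4 and -0.39 for PSMC3, so part of the ratio change lies in the input. The 2 proteasome genes that fell were PSMB1 (-0.53) and PSMD5 (-0.77).

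**Figure D1:**
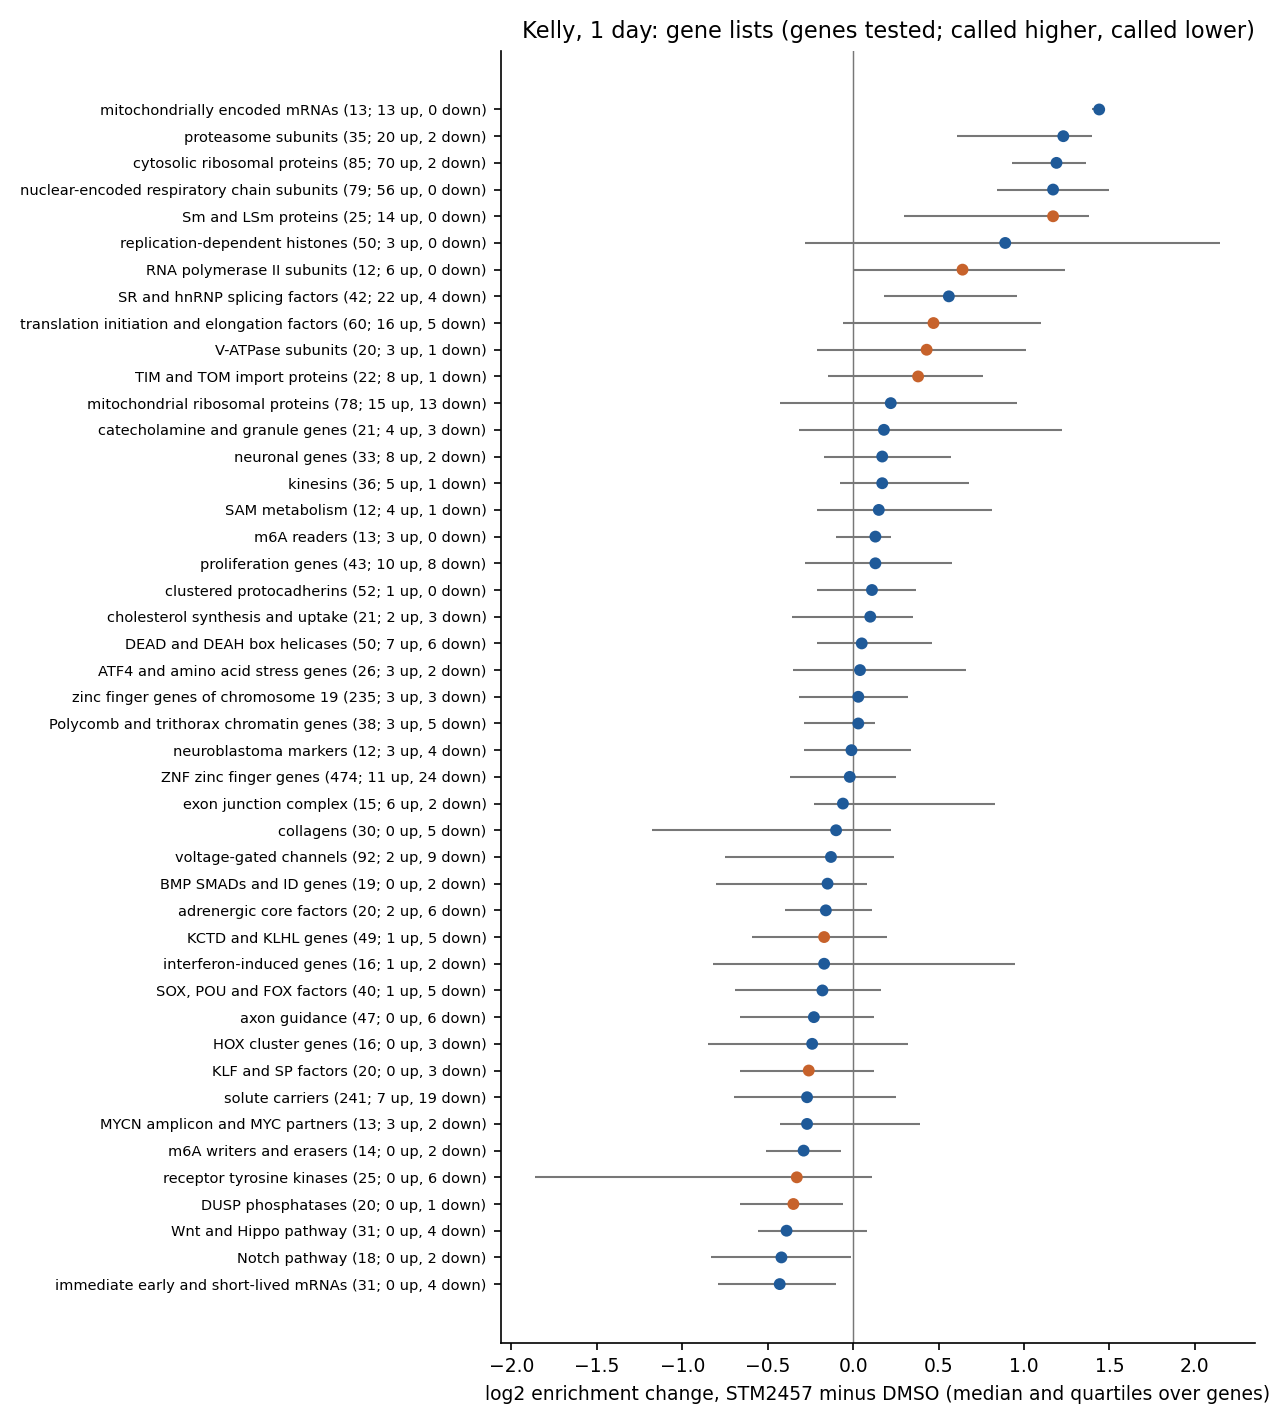
Median (point) and quartiles (line) of the log2 enrichment change over the tested genes of 45 lists, sorted by median, with the number of genes tested, called higher and called lower beside each name; orange points mark the 9 lists added after values were seen. The values are relative to the TMM scaling: the 5 lists at the top lie between 1.17 and 1.44 and the immediate early list at the bottom at -0.43, and with the mitochondrial reference the proteasome, ribosomal protein and respiratory chain medians turn to -0.21, -0.25 and -0.28.

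RNA-processing genes followed in part. Of 42 tested SR and hnRNP splicing factors of 46, 22 rose (52.4%, against 9.53% of all genes tested) and 4 fell (9.52%, against 7.62%). Their median of 0.56 became -0.88 with the mitochondrial reference. TRA2B, an SR-like splicing activator, had ratios of -2.75, -2.42 and -2.57 with DMSO and -1.21, -1.21 and -1.23 with STM2457 (1.36, SE 0.109). HNRNPA2B1, an hnRNP that has been described as an m6A reader and that shares exon sequence with CBX3, rose by 1.15 (SE 0.094). HNRNPF moved the other way, from 2.04, 2.05 and 2.05 to 1.15, 1.20 and 1.03 (-0.92, SE 0.0827; edgeR, Benjamini-Hochberg adjusted p 1.43e-05). The other members that fell were HNRNPR (-0.72), SRSF8 (-0.68) and SRRM3 (-0.54). The family was therefore mixed, and 4 members fell in every alternative except the mitochondrial reference, where the whole scale shifts.

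Of 15 exon junction complex and nonsense-mediated decay genes, 6 rose (40%, against 9.53% of all genes tested) and 2 fell (13.3%, against 7.62%). Their median of -0.06 turned to 0.03 under RLE scaling. Among the rises were MAGOH, a subunit of the core, and RNPS1, a peripheral component. MAGOH went from -0.66, -1.04 and -0.90 to 1.16, 1.11 and 0.89 (1.92, SE 0.218). RNPS1 rose by 1.31 (SE 0.155). The falls were those of the decay factors SMG5 (-0.58) and UPF1 (-0.40).

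Lists of other basic machinery were added after values were seen and are given as description. The shares over all genes tested were 9.53% for rises and 7.62% for falls. Of 25 Sm and LSm proteins, the ring proteins of spliceosomal RNPs, 14 rose and 0 fell (median 1.17, -0.29 with the mitochondrial reference). RNA polymerase II subunits counted 6 rises and 0 falls of 12 (0.64, -0.78). Translation initiation and elongation factors counted 16 and 5 of 60 tested (0.47, -0.94), TIM and TOM import proteins 8 and 1 of 22 (0.38, -1.05), and V-ATPase subunits 3 and 1 of 20 (0.43, -1.01). V-ATPase rises numbered 5 without STM2457 RIP 1. Not all compact housekeeping families showed this. Mitochondrial ribosomal protein genes, all 78 tested, counted 15 rises and 13 falls with a median of 0.22 (-1.22 with the mitochondrial reference). Their 3 lowest p values belonged to falls. MRPS12 went from 2.58, 2.55 and 2.52 to 1.08, 1.24 and 1.11 (-1.40, SE 0.113; edgeR, Benjamini-Hochberg adjusted p 7.09e-06), and it shares exon sequence with SARS2. MRPS26 fell by 1.02 and MRPS27, which shares exon sequence with PTCD2, by 0.95 on the log2 scale.

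Lists of signalling and transcription regulators held few calls each, read here against the 7.62% of all genes tested that fell. Of 31 tested immediate early and short-lived mRNAs of 36, 0 rose and 4 fell (12.9%), with a median of -0.43. The number of falls was 2 without DMSO input 1 and 10 without STM2457 RIP 1. KLF6, a stress-induced transcription factor, went from 1.90, 1.57 and 1.88 to 1.20, 0.68 and 0.94 (-0.84, SE 0.204). JUNB (-0.85), which shares exon sequence with HOOK2, and the mRNA decay factor ZFP36L2 (-0.40) fell too, and 1 further member is not named. Axon guidance genes counted 0 rises and 6 falls (12.8%) of 47 tested of 52 (median -0.23), with 3 falls without DMSO input 3. UNC5B, a netrin receptor, went from -1.31, -1.43 and -1.32 to -2.52, -1.94 and -2.05 (-0.80, SE 0.16). EFNB3, an ephrin ligand, went from 1.76, 1.78 and 1.77 to 0.96, 0.17 and 0.70 (-1.13, SE 0.263; edgeR, Benjamini-Hochberg adjusted p 0.011). Both genes fell in all 3 treated libraries, from opposite sides of 0.

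Notch pathway genes counted 0 rises and 2 falls (11.1%) of 18 tested, with a median of -0.42 that turned to 0.02 without STM2457 RIP 2. The falls were those of DLL3, a Notch ligand of neuroendocrine cells, at -1.20 (SE 0.236), and of HES6 at -2.37. Wnt and Hippo pathway genes counted 0 and 4 (12.9%) of 31 (median -0.39), with falls in the Wnt co-receptors LRP5 (-0.69) and LRP6 (-0.60), the corepressor TLE1 (-0.71) and the receptor FZD9, whose fitted -8.77 rests on treated RIP libraries with no counts. The 4 falls became 2 without DMSO input 3. BMP SMADs and ID genes counted 0 and 2 (10.5%) of 19 (-0.15), or 5 falls without STM2457 RIP 3. ID3, an inhibitor of helix-loop-helix factors, had ratios of -1.35, -1.46 and -1.42 with DMSO and -2.78, -2.81 and -2.39 with STM2457 (-1.24, SE 0.148). ID3 was thus already below its input level with DMSO. ID4, at -5.00, is the other fall and rests on few counts.

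Solute carriers, the largest family examined next to the zinc finger genes, counted 7 rises and 19 falls of 241 tested of 368, with a median of -0.27 (-0.21 with genes at 0 counts set to their bound). The share that fell, 7.88%, was near the 7.62% of all genes, and the share that rose was 2.9% against 9.53%. Falls numbered 8 without STM2457 input 3 and 33 without STM2457 RIP 1, and rises 4 without DMSO input 1 and 13 without STM2457 RIP 1. SLC25A17, a peroxisomal carrier, went from 1.55, 1.73 and 1.77 to 0.67, 0.32 and 0.23 (-1.27, SE 0.164). Of 474 tested ZNF genes of 505, 11 rose and 24 fell, with a median of -0.02 that became 0.07 under RLE scaling. Rises numbered 3 without STM2457 input 1 and 20 without STM2457 RIP 1, and falls 14 without STM2457 input 2 and 44 without STM2457 RIP 3. The chromosome 19 subset counted 3 rises and 3 falls of 235 (0.03), or 12 falls without STM2457 RIP 3. ZNF512 rose by 1.09 (SE 0.149) and ZNF768 fell by 0.80 on the log2 scale (SE 0.115). The shares of ZNF genes that rose, 2.32%, and fell, 5.06%, were both below those of all genes. Such shares varied with input level. In the second-lowest quintile of genes by input level 2.67% rose and 3.07% fell, and in the highest 28.9% and 14.5%. The solute carriers and ZNF genes were not matched for level, so few calls may not be a trait of these families.

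The largest single falls ran from -2.17 to -1.68. They were picked among called genes averaging 4 log2 CPM or more whose ratios did not overlap between treatments. FBLL1, a fibrillarin-like gene, led with ratios of 0.12, 0.19 and 0.06 with DMSO and -2.06, -2.34 and -1.80 with STM2457 (-2.17, SE 0.282). Its input rose by 0.63 on the log2 scale at the same time. PITPNM1, a phosphatidylinositol transfer protein, fell by 2.11 (SE 0.516). MET (chr7:116672196-116798386, GRCh38), the hepatocyte growth factor receptor, went from -0.58, 0.18 and -0.37 to -2.70, -2.87 and -1.49 (-2.0, SE 0.494; edgeR, Benjamini-Hochberg adjusted p 0.0151). DDR1, a collagen-binding receptor tyrosine kinase, went from -0.30, -0.39 and -0.27 to -1.83, -2.37 and -2.40 (-1.86, SE 0.227). These 2 receptors moved from near the mean input level to clear depletion in all treated libraries. Both belong to the list of receptor tyrosine kinases, added after values were seen. That list counted 0 rises and 6 falls (24%, against 7.62% of all genes tested) of 25, with a median of -0.33.

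MIDN, which encodes a protein that brings substrates to the proteasome, had ratios of -1.61, -1.49 and -1.37 with DMSO and -3.60, -3.27 and -3.20 with STM2457 (-1.86, SE 0.21; edgeR, Benjamini-Hochberg adjusted p 7.7e-05). The 8 GGACT matches of its 3892 base transcript include the one shown above. EGLN1, the prolyl hydroxylase that marks hypoxia-inducible factor for degradation, was among the more enriched transcripts with DMSO. It went from 2.46, 2.60 and 2.44 to 1.02, 0.42 and 0.45 (-1.84, SE 0.266) and shares exon sequence with AL445524.2. GDE1, a glycerophosphodiester phosphodiesterase, went from 0.23, 0.33 and 0.53 to -1.43, -1.90 and -1.02 (-1.77, SE 0.272). PLIN2, which coats lipid droplets, fell by 1.70 (SE 0.351). Falls of similar size were measured for NDOR1 (-1.94), COG7 (-1.73), NT5C3B (-1.70) and TMEM35A (-1.68). The COG7 call was lost without DMSO input 2 (adjusted p 0.0506 by edgeR with Benjamini-Hochberg). The TMEM35A call was lost without any 1 of the 6 inputs or the 3 DMSO RIP libraries, at 0.0544 to 0.0843.

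The largest rises, picked by the same conditions as the falls, ran from 2.09 to 2.56. CDC40, a splicing factor of the second catalytic step, went from -3.03, -3.15 and -2.67 to -0.96, 0.52 and -1.46 (2.56, SE 0.577). Its treated libraries spread widely, and their place above all controls was a condition of the choice. GABARAP, an autophagosome protein, went from -3.19, -3.46 and -3.44 to -0.54, -2.36 and -1.22 (2.16, SE 0.46). PDCD5 went from -2.29, -2.51 and -3.13 to -0.62, -0.07 and -0.82 (2.13, SE 0.311). MRPL22, a mitochondrial ribosomal protein gene, crossed 0, from -0.61, -1.13 and -0.69 to 1.78, 1.09 and 0.91 (2.11, SE 0.317; edgeR, Benjamini-Hochberg adjusted p 0.00063). LTA4H, which makes leukotriene B4, was the most depleted of the set with DMSO at -4.49, -3.63 and -5.28 and stood at -1.91, -2.34 and -2.35 with STM2457. The others were ZC4H2 (2.31), the autophagy receptor CALCOCO2 (2.23), DDAH2 (2.17), the checkpoint clamp subunit HUS1 (2.15), NSMCE1 (2.14), C17orf75 (2.13) and PIR (2.09). All 12 stood below 0 in every DMSO library, and the calls for CALCOCO2 and PIR were lost in the voom fit (adjusted p 0.0706 and 0.0801 by limma with Benjamini-Hochberg). DDAH2 shares exon sequence with CLIC1, C17orf75 with RHBDL3 and GABARAP with AC120057.2.

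**Figure D2:**
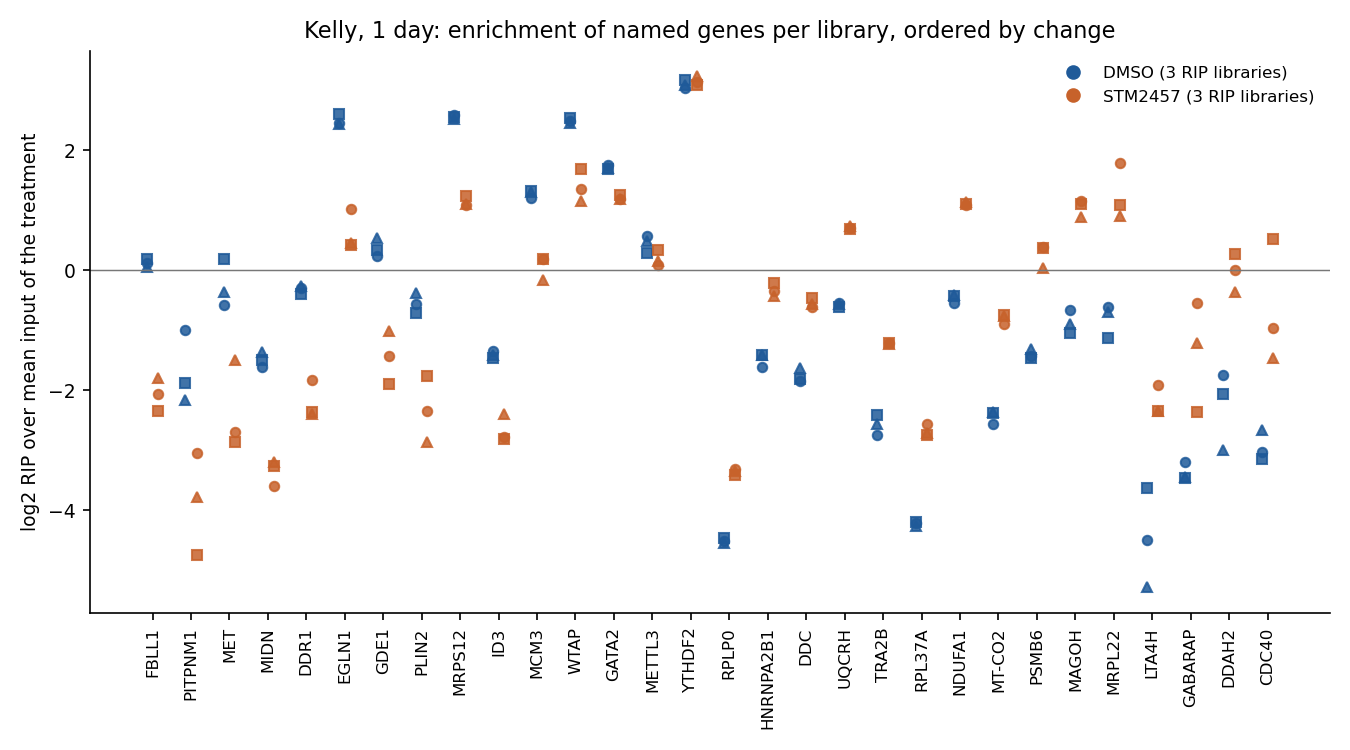
Log2 ratio of each RIP library over the mean input of its treatment for named genes, ordered by enrichment change from the largest fall on the left to the largest rise on the right; circles, squares and triangles are replicates 1, 2 and 3, blue for DMSO and orange for STM2457. FBLL1 falls from between 0.06 and 0.19 to between -2.34 and -1.80, YTHDF2 overlaps between treatments, and CDC40 rises with treated values from -1.46 to 0.52; all positions are relative to the TMM scaling.

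Neuroblastoma identity genes moved in both directions. Of 20 adrenergic core transcription factors, 2 rose (10%, against 9.53% of all genes tested) and 6 fell (30%, against 7.62%). Their median was -0.16. The counts were 0 and 3 without DMSO input 1. INSM2 fell by 0.61 (SE 0.141) and GATA2 by 0.51 (SE 0.0693) on the log2 scale, each with 3 treated ratios under 3 control ratios. The rises were those of LMO1 (1.03) and SATB1 (0.48).

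MYCN (chr2:15940550-15947007), the amplified oncogene of the line, had ratios of 2.34, 2.16 and 2.18 with DMSO and 1.91, 1.88 and 2.06 with STM2457. The change was -0.27 (SE 0.0867; edgeR, Benjamini-Hochberg adjusted p 0.0473). The call was lost under RLE scaling (adjusted p 0.198), without the filter (0.39) and with a replicate block (0.0769), all by edgeR with Benjamini-Hochberg. It was also lost in DESeq2 (adjusted p 0.122). Without any 1 library except STM2457 RIP 3 the call was lost too, at 0.0537 to 0.217 by edgeR with Benjamini-Hochberg. Among 13 genes of the MYCN amplicon and MYC partners 3 rose, namely DDX1 (1.29), MAX (0.99) and MXI1 (1.13), and MXD4 (-1.08) fell beside MYCN. MAX shares exon sequence with FNTB and CHURC1-FNTB. Rises made up 23.1% and falls 15.4% of this list, against 9.53% and 7.62% of all genes tested. The falls were 0 without DMSO input 1.

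Catecholamine and secretory granule genes counted 4 rises (19%) and 3 falls (14.3%) of 21 tested of 23, against 9.53% and 7.62% of all genes tested. Their median was 0.18 (-1.27 with the mitochondrial reference). Without STM2457 RIP 1 there were 7 rises, and without DMSO input 3 there was 1 fall. DDC, which makes dopamine from L-DOPA, went from -1.84, -1.81 and -1.63 to -0.61, -0.46 and -0.56 (1.22, SE 0.0919). SCG3, a granule protein, rose by 1.09 (SE 0.205). The rises also held TH (0.92), the rate-limiting enzyme of catecholamine synthesis, and the neuropeptide gene GAL (1.57). CHGA, the most abundant granule mRNA, fell from 2.00, 1.87 and 1.82 to 1.32, 1.32 and 1.24 (-0.60, SE 0.0744; edgeR, Benjamini-Hochberg adjusted p 0.000154). CHGB (-0.36) and DBH (-0.32) were the other falls. DDC and SCG3 were below their input level with DMSO, and CHGA was above it.

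Neuronal genes counted 8 rises (24.2%) and 2 falls (6.06%) of 33 tested of 34, against 9.53% and 7.62% of all genes tested. Their median was 0.17 (-1.27 with the mitochondrial reference), and falls numbered 5 without STM2457 RIP 3. SNAP25, a synaptic vesicle fusion protein, went from -0.88, -1.09 and -1.0 to 0.51, 0.86 and 0.80 (1.72, SE 0.181). GAP43, a growth cone protein, went from 0.32, 0.44 and 0.38 to 1.44, 1.44 and 1.28 (1.02, SE 0.111). TUBB2B, a neuronal tubulin, went from 0.30, 0.44 and 0.16 to -0.82, -1.11 and -1.22 (-1.35, SE 0.143; edgeR, Benjamini-Hochberg adjusted p 4.8e-05). TUBB2B shares exon sequence with PSMG4, and near-identical tubulin paralogs make its level uncertain.

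Proliferation genes counted 10 rises (23.3%) and 8 falls (18.6%) of 43 tested of 44, against 9.53% and 7.62% of all genes tested. In the quintile of genes with the highest input level 28.9% rose and 14.5% fell. None of the lists was matched for level. The median of the proliferation genes was 0.13 (-1.31 with the mitochondrial reference). Rises numbered 5 without STM2457 input 2. The 3 lowest p values belonged to falls. MCM3, a subunit of the replicative helicase, went from 1.20, 1.32 and 1.30 to 0.19, 0.19 and -0.17 (-1.20, SE 0.116). FOXM1, a transcription factor of the G2 and M phases that shares exon sequence with ITFG2, went from 1.36, 1.39 and 1.39 to 0.23, 0.28 and 0.33 (-1.10, SE 0.0764; edgeR, Benjamini-Hochberg adjusted p 2.29e-06). MCM5, another helicase subunit, fell by 0.80 (SE 0.107), while the helicase subunit MCM7 rose by 0.65.

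Of 14 writers and erasers of m6A, 0 rose and 2 fell (14.3%, against 7.62% of all genes), with a median of -0.29, and falls ran from 1 without DMSO input 1 to 4 without STM2457 RIP 1. WTAP (chr6:159725585-159756319), the writer subunit that targets METTL3 and METTL14 to nuclear speckles, went from 2.48, 2.53 and 2.46 to 1.35, 1.69 and 1.15 (-1.08, SE 0.155; edgeR, Benjamini-Hochberg adjusted p 0.00047). Its input rose by 0.46, and it shares exon sequence with SOD2. The second fall was that of PCIF1 (-0.66), which methylates the cap-adjacent adenosine.

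METTL3 (chr14:21498133-21511342), the inhibited enzyme, had ratios of 0.57, 0.28 and 0.49 with DMSO and 0.09, 0.33 and 0.16 with STM2457, which overlap. Its value was -0.26 (SE 0.145; edgeR, Benjamini-Hochberg adjusted p 0.277). It shares exon sequence with TOX4. METTL14 stood at -0.67 (SE 0.227, adjusted p 0.0645 in the same edgeR test with Benjamini-Hochberg), and was called at 0.0313 without DMSO RIP 1 and at 0.0334 without STM2457 RIP 1. The demethylases FTO at -0.52 (SE 0.217) and ALKBH5 at -0.51 (SE 0.317) did not pass, except FTO without STM2457 RIP 2 (-0.67) and ALKBH5 without STM2457 RIP 1 (-0.82). An inhibitor of the enzyme leaves the gene intact, so these values are no check of the treatment.

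Of 13 tested m6A readers, 3 rose (23.1%, against 9.53% of all genes) and 0 fell (median 0.13, -1.31 with the mitochondrial reference). The rises were those of HNRNPA2B1, HNRNPC at 1.03 (SE 0.221) and PRRC2A at 0.22. In the quintile of genes with the highest input level 28.9% rose, and the comparison was not matched for level. YTHDF2, which directs methylated mRNA to decay, was the most enriched of the genes fixed for naming. Its ratio was 3.04, 3.16 and 3.08 with DMSO and 3.13, 3.08 and 3.23 with STM2457, overlapping values with a change of 0.05 (SE 0.0956; edgeR, Benjamini-Hochberg adjusted p 0.797). Genes of S-adenosylmethionine (SAM) metabolism, which supply the methyl donor, counted 4 rises (33.3%) and 1 fall (8.33%) of 12 tested. The shares over all genes tested were 9.53% and 7.62%. The median of the SAM genes was 0.15 (-1.29 with the mitochondrial reference). MAT2A, the SAM synthetase whose mRNA carries METTL16 sites, went from -1.46, -1.15 and -1.10 to -0.23, -0.55 and -0.50 (0.81, SE 0.147) and shares exon sequence with GGCX. ODC1, the first enzyme of polyamine synthesis, went from -5.11, -4.97 and -5.02 to -3.81, -3.51 and -3.60 (1.40, SE 0.112). The fall was that of AHCYL2 (-1.41).

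The change varied with how enriched a transcript is in Kelly cells without inhibitor, though not in a steady order. To avoid the libraries under test, genes were put into deciles by their DMSO enrichment in Kelly cells at 6 days, a separate experiment. The least enriched decile had a median change of 0.86, with 460 genes called higher and 13 lower of 1367. The next deciles had medians of 0.53, 0.19 and -0.02. Medians were lowest in the middle, at -0.21, -0.26, -0.23 and -0.20 in deciles 5 to 8, where 132, 151, 148 and 171 genes fell. In the most enriched decile the median was -0.06, with 39 rises and 99 falls.

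The levels of each library show where the distance shrank. The least enriched decile had median ratios of -2.92, -2.88 and -2.83 in the DMSO RIP libraries at 1 day and -2.12, -2.17 and -2.18 with STM2457. In the most enriched decile they were 2.52, 2.48 and 2.44 with DMSO and 2.37, 2.37 and 2.40 with STM2457. The least minus the most enriched decile was -5.44, -5.36 and -5.27 with DMSO and -4.49, -4.53 and -4.58 with STM2457. All 3 treated libraries had the smaller distance. The difference of the medians was 0.928 with all libraries. It kept its sign in every alternative where it was computed. The fits without the low-count filter and with the replicate block of input and RIP were left out. With deciles formed from the DMSO libraries of NGP, another neuroblastoma line, the difference shrank to 0.121. The medians of those deciles ran only from -0.10 to 0.14, so the pattern was largely absent there.

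**Figure D3:**
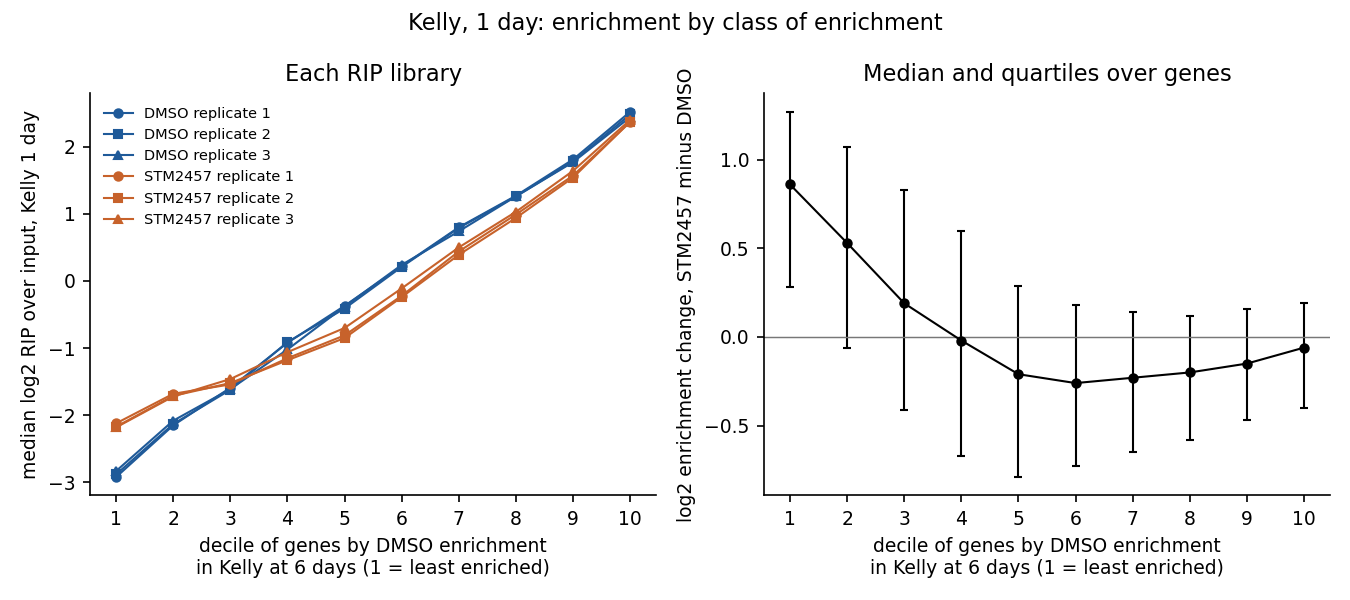
Left, median log2 ratio of RIP over input in each Kelly 1 day RIP library for deciles of genes ordered by DMSO enrichment in Kelly cells at 6 days (1 is the least enriched). Right, median and quartiles of the log2 enrichment change per decile, STM2457 minus DMSO, relative to the TMM scaling; the treated lines lie above the controls in the first decile (-2.12 to -2.18 against -2.92 to -2.83) and below them in the middle, and the median falls from 0.86 to -0.26 and returns to -0.06.

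Transcript structure separated the classes as well, in the canonical GENCODE 44 transcripts of 13352 tested genes. The median number of splice junctions per kb was 3.96 in risen genes, 2.53 in fallen genes and 2.62 in all. Transcript length was 2356, 3191 and 3411 bases, the last exon 977, 1576 and 1713 bases, and the longest internal exon 184, 239 and 218 bases. GGACT occurred 0.79, 1.05 and 0.93 times per kb on the transcript strand. GC content was 45.7% in risen, 54.6% in fallen and 48.9% in all genes. Risen genes were thus shorter, more densely spliced and lower in GC content than fallen genes by their medians.

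In the quintile of genes with the highest junction density 18.0% rose and 5.84% fell, and in the lowest quintile 4.46% rose and 7.26% fell. In the quintile with the longest internal exons, with a median of 795.5 bases, 2.35% rose and 10.3% fell, against 15.8% and 6.44% in the shortest quintile, with a median of 127 bases. Last exons in the shortest quintile went with 18.4% rises, and those in the longest quintile with 5.92%. The lowest GC quintile had 11.6% rises and 2.4% falls, and the highest 5.65% and 11.8%. Across genes, the Spearman correlation of the change with GC content was -0.213 and with junction density 0.130, as descriptions over genes that share the same 12 libraries.

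**Figure D4:**
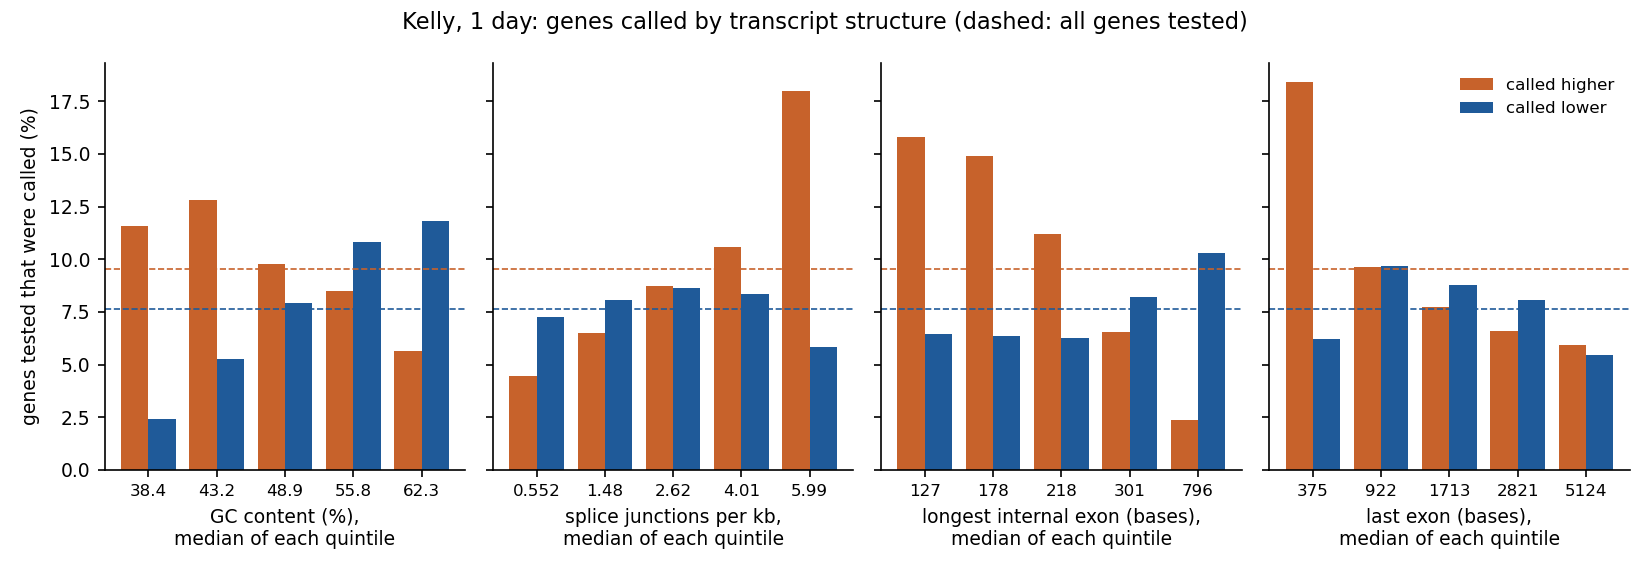
Share of tested genes called higher (orange) and lower (blue) with STM2457 in quintiles of genes by GC content, splice junctions per kb, longest internal exon and last exon of the canonical transcript; the axis under each panel gives the median of each quintile, and dashed lines mark 9.53% and 7.62% over all genes tested. Rises climb from 4.46 to 18.0% with junction density and drop from 15.8 to 2.35% with internal exon length, relative to the TMM scaling.

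These features moved with each other and with expression. Risen genes had a median input of 6.81 log2 CPM, fallen genes 5.84 and all genes 4.59. In the top quintile by input level 28.9% rose and 14.5% fell, against 0.512% and 5.34% in the lowest quintile. GC content kept its order within each tertile of DMSO enrichment. The medians for low, middle and high GC were 0.75, 0.50 and 0.18 in the least enriched tertile and -0.03, -0.12 and -0.28 in the most enriched tertile. Junctions in the last 120 coding bases went with higher values in the least enriched tertile (0.65 against 0.35) and the middle tertile (-0.15 against -0.23). In the most enriched tertile the order was the opposite (-0.18 against -0.13). The separate part of GC content, junctions and level in the change was not tested.

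A second group of falls lay at low levels and often rested on few or no counts in the STM2457 RIP libraries. Below a mean of 4 log2 CPM, 67 genes rose and 229 fell, the falls with a median of -6.67. Of these falls 196 were at least 4 on the fitted log2 scale. At or above that level 1236 rose (median 1.10) and 813 fell (median -0.74). Of all 1042 fallen genes, 120 had no count in any STM2457 RIP library, and 182 had at most 3 in each. Only 2 risen genes had no count in any DMSO RIP library. Genes detected numbered 14433, 13903 and 13728 in the DMSO RIP libraries and 12919, 12896 and 13514 in the STM2457 RIP libraries. Whether these low-level falls come from that general difference in detection was not tested. ZNF165, a zinc finger gene, had 41, 119 and 82 counts in the DMSO RIP libraries and 0 in all 3 treated ones, against 16, 20 and 27 counts in the DMSO inputs and 21, 36 and 13 in the treated inputs. Its ratio of RIP over input was at least 32.5-fold lower with STM2457, with each empty library set to a floor of 3 counts. The collagen falls were mostly of this kind: 5 of 30 fell and 0 rose, and COL11A1 (-7.32), COL11A2 (-7.18), COL5A2 (-7.03) and COL9A3 (-6.46) have fitted values that depend on the prior count, while COL18A1 stood at -1.21. Collagen falls numbered 2 without DMSO input 1 and 8 without STM2457 RIP 2.

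The overall spread of enrichment did not settle in one direction. Over 9354 genes the standard deviation of the log2 ratio was 1.884, 1.905 and 1.921 in the DMSO libraries and 1.949, 2.096 and 1.735 with STM2457. The difference of means was 0.023, with an exact two-sided permutation p of 0.7 over 20 arrangements, of which the smallest possible is 0.1. Without STM2457 RIP 2 it was -0.062. Over 4376 genes of at least 50 CPM the values were 1.850, 1.840 and 1.841 against 1.645, 1.690 and 1.605, a difference of -0.197 without overlap (exact permutation p 0.1, the smallest this design can give). Over the 9354 genes the range from the 10th to the 90th percentile differed by -0.399 (exact permutation p 0.1). All 3 treated libraries were narrower by the standard deviation of the genes of at least 50 CPM and by the percentile range of the 9354 genes, but not by the standard deviation of the 9354 genes.

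The direction of these calls was compared with experiments that share no library with it, Kelly and NGP cells after 6 days of STM2457 or DMSO. Of the risen genes also tested there, 87.3% were above 0 in Kelly at 6 days, against 59.6% of all genes, and their median change was 0.86 against 0.20. Of the fallen genes 30.5% were above 0, with a median of -0.28. In NGP the shares were 84.0% of risen, 26.5% of fallen and 50.0% of all genes, with medians of 0.32, -0.22 and 0.00. Across genes of at least 4 log2 CPM the Spearman correlation with the 1 day change was 0.468 for Kelly at 6 days (8456 genes) and 0.437 for NGP (8343 genes), as a description. The changes in NGP had the same sign but were smaller for the machinery lists. The median for mitochondrially encoded mRNAs was 1.76 in Kelly at 6 days and 0.17 in NGP, for ribosomal proteins 0.79 and 0.29, for the respiratory chain 1.04 and 0.34, and for the proteasome 1.07 and 0.32. The Notch list stood at 0.44 in Kelly and -0.14 in NGP, and the immediate early list at 0.04 and 0.06. These list differences were not tested.

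**Figure D5:**
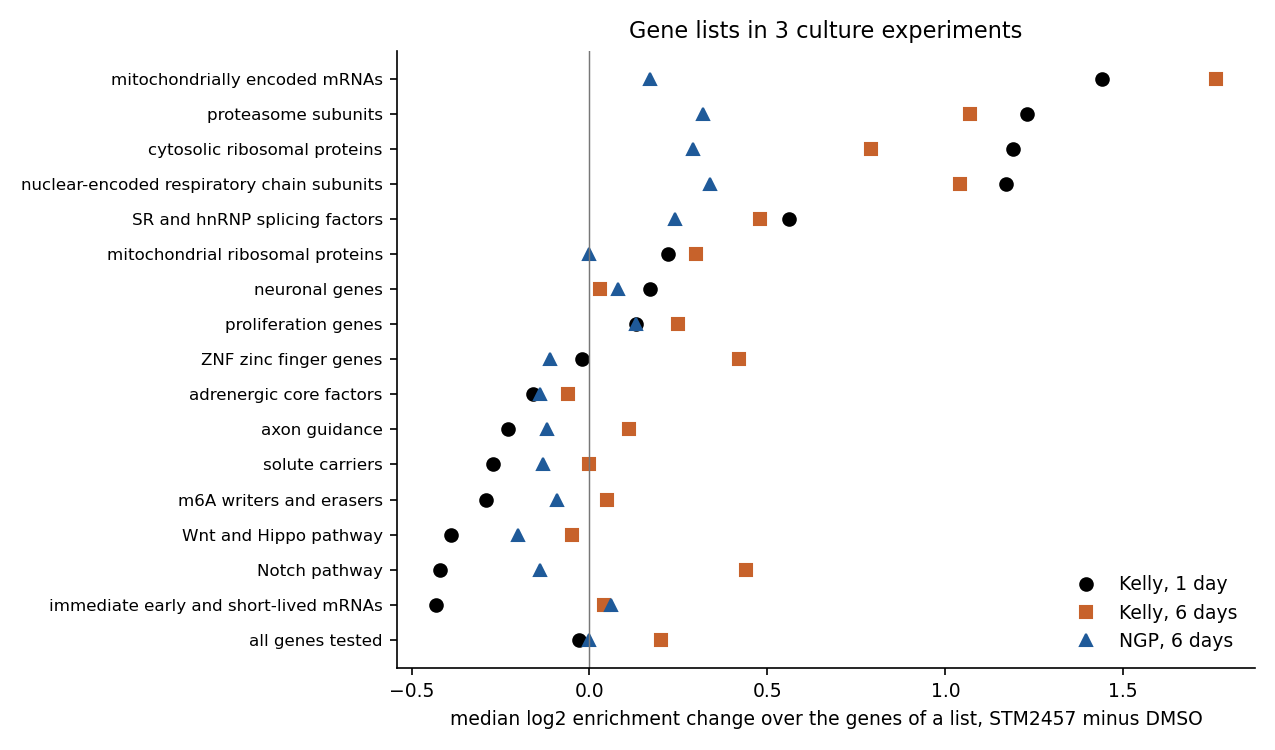
Median log2 enrichment change over the tested genes of each list in Kelly cells at 1 day (black circles), Kelly cells at 6 days (orange squares) and NGP cells at 6 days (blue triangles), each experiment scaled by itself with TMM. The mitochondrial, proteasome, ribosomal protein and respiratory chain lists lie right of 0 in all 3 experiments, between 0.17 and 0.34 in NGP, while the Notch list stands at -0.42, 0.44 and -0.14; with the mitochondrial reference the Kelly 1 day medians of these 4 rising lists become 0.00, -0.21, -0.25 and -0.28.

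A test of the difference itself, as an interaction of treatment, library type and experiment, called 50 of 14324 genes between Kelly at 6 days and at 1 day (0.349% of those tested) and 79 of 14665 genes between NGP and Kelly at 1 day (0.539%), by edgeR with Benjamini-Hochberg adjustment. The first count was 25 genes higher and 25 lower at 6 days and fell to 0 in the voom fit. Without single libraries it spanned 11 (DMSO input 3 of 1 day) to 474 (STM2457 RIP 1 of 6 days). The second count was 49 higher and 30 lower in NGP, 20 in the voom fit and 502 without Kelly 1 day STM2457 RIP 3. MIDN, among the largest falls at 1 day, stood at -0.23 in Kelly at 6 days and 0.35 in NGP, and its difference from NGP of 2.17 (SE 0.348) was called.

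The remaining lists had few calls or calls on both sides. Over all genes tested, 9.53% rose and 7.62% fell. No SOCS gene of 7 was called (median 0.22). DEAD and DEAH box helicases counted 7 rises and 6 falls of 50, Polycomb and trithorax genes 3 and 5 of 38, and kinesins 5 and 1 of 36. ATF4 and amino acid stress genes counted 3 and 2 of 26. PHGDH, the first enzyme of serine synthesis, rose by 1.66 (SE 0.165) and ASNS, asparagine synthetase, by 1.13 (SE 0.245), while their inputs fell by 0.65 and 0.64 on the log2 scale. Cholesterol genes counted 2 and 3 of 21. FDPS, a synthesis enzyme, rose by 0.97 (SE 0.104). Falls among helicases ran from 2 without DMSO input 2 to 9 without STM2457 RIP 3, among Polycomb and trithorax genes from 0 without DMSO RIP 3 to 8 without STM2457 RIP 2, and kinesin rises went to 1 without DMSO input 3. Clustered protocadherins counted 1 and 0 of 52, HOX genes 0 and 3 of 16, SOX, POU and FOX factors 1 and 5 of 40, voltage-gated channels 2 and 9 of 92 (5 falls without DMSO input 2, 14 without STM2457 RIP 1), and interferon-induced genes 1 and 2 of 16. The neuroblastoma markers counted 3 and 4 of 12, and none of the 5 tested non-neural markers was called. Lists added after values were seen counted 0 and 3 of 20 for KLF and SP factors, 0 and 1 of 20 for DUSP phosphatases, and 1 and 5 of 49 for KCTD and KLHL genes. Replication-dependent histones counted 3 rises and 0 falls of 50, with near-identical paralogs that make their counts uncertain and a median from 0.00 to 1.56 over the alternatives.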

How the data were processed

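Per the file headers, the authors deposited 1 table per library of raw counts of paired fragments per gene name, made with featureCounts 1.5.3 over exons of the protein-coding GENCODE 33 annotation (GRCh38). No strand or multiple-overlap option is named, so fragments on exons shared by genes, antisense included, could not be told apart. The submitters' processing notes also name HISAT2 2.1.0, Trimmomatic 0.36, FastQC 0.11.5 and deepTools 2.0. Per the labels' protocols, m6A and unmodified control RNAs were added. They were not analysed here, so absolute m6A levels are not given.

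The 12 libraries were fitted with edgeR 4.0.16 (R 4.3.3; TMM, filterByExpr with a minimum count of 10 and total of 15, glmQLFit and glmQLFTest on the interaction of treatment and library type, two-sided, Benjamini-Hochberg at 0.05). Differences between experiments were fitted over 24 libraries. Per-library ratios used a prior of 0.5 counts, and 5 for the deciles. The fit was run on simulated data in which only well-covered genes were changed, so falls at low counts were not covered. Alternatives were RLE, a mitochondrial reference, DESeq2 1.42.0, no filter, genes of at least 4 log2 CPM, replicate blocks, each library left out and, added after values were seen, limma 3.58.1 voom with weights by library type and 0 counts set at their bound. Each edgeR fit, the main one included, pooled the spread of a gene over all its groups, although the STM2457 RIP libraries varied most. This also held where a group was left with fewer libraries. Exons, GC content and sequences came from GENCODE 44, which holds 95.4% of the tables' gene names, with 98.2% of exons at identical coordinates.

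The genes and 38 lists were chosen with earlier results of these data known, and 9 lists were added after values were seen. Named are the 12 largest falls and rises with a call, 4 log2 CPM or more and no overlap, up to 3 called genes with the lowest p per list, METTL3, METTL14, WTAP, FTO, ALKBH5, YTHDF2 and MYCN, and the 3 genes with the lowest p per difference between experiments. Some of these are not reported here. Genes named to complete small counts, with TH, GAL, MCM7 and ZNF165, were chosen after their values were seen. No replicates agreed within sampling noise (chi-square over its degrees of freedom was 3.71 or more). The headers put inputs and RIP libraries in separate folders, each holding both treatments.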

Additional observations from a re-analysis of the deposited data

Results flagged for a closer look

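The treatment effect differed between experiments for some genes, by a test of the difference itself with edgeR and Benjamini-Hochberg adjustment. For Kelly cells, 50 genes differed between 6 days and 1 day. F12, coagulation factor XII, differed by 8.46 (SE 1.11), from -6.79 at 1 day to 1.78 at 6 days. Its counts at 1 day were 159, 156 and 69 in DMSO RIP and 0, 0 and 3 in STM2457 RIP, a RIP ratio of 0.00731 with a 95% counting interval of 0.0015 to 0.0215, and it shares exon sequence with GRK6. TADA3, a subunit of histone acetyltransferase complexes, differed by -2.63 (SE 0.345), from 0.70 to -1.88, and shares exon sequence with ARPC4 and OGG1. MTMR2, a lipid phosphatase, differed by -6.81 (SE 0.933), from 1.29 to -5.40.

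Between NGP cells at 6 days and Kelly cells at 1 day the number was 79. ARHGDIG differed by 7.47 (SE 1.16). Its Kelly 1 day counts were 33, 49 and 30 in DMSO RIP and 0, 1 and 0 in STM2457 RIP, a RIP ratio of 0.00835 with a 95% counting interval of 0.00021 to 0.0475. CDKN2A, which encodes cell cycle inhibitors, differed by 2.82 (SE 0.445), from -2.48 to 0.40. MIDN differed by 2.17 (SE 0.348), from -1.86 to 0.35. Each of these 6 genes was among the 3 lowest p values of its comparison, so their sizes are selected ones. The intervals cover counting error only.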

How the results depend on the processing

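Under the mitochondrial reference the total was 8369 calls, 13 higher and 8356 lower. Changes then turned negative for MT-CYB (-0.03), MT-ND2 (-0.04), RPLP0 (-0.29), RPS18 (-0.29), UQCRH (-0.16), PSMC3 (-0.03), TRA2B (-0.08), HNRNPA2B1 (-0.28), RNPS1 (-0.14), DDC (-0.22), SCG3 (-0.35), GAP43 (-0.42), YTHDF2 (-1.39), HNRNPC (-0.42), ODC1 (-0.04), MAT2A (-0.62), ASNS (-0.32), FDPS (-0.48) and ZNF512 (-0.35). These signs follow from the construction, which shifts all genes. Of the 82 genes examined, 21 more lost their call there. Without the low-count filter 16924 genes were tested, with 1580 rises, 630 falls and a median change of 0.081. The labels do not say whether equal replicate numbers mark paired samples. Correlations of deviations between equal numbers ran from -0.369 to 0.097, which cannot exclude pairing with 3 libraries per group. A replicate block gave 1158 rises and 847 falls, without a call for MYCN (-0.27, adjusted p 0.0769 by edgeR with Benjamini-Hochberg), and a replicate block of input and RIP gave 977 and 608. Leaving out 1 library gave 644 to 1681 falls. For YTHDF2 the range was -0.01 to 0.14. The cause of the other shifts was not tested.

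The Kelly 6 day difference, 25 higher and 25 lower, became 13 higher with RLE, 364 (137 and 227) with DESeq2, 29 (8 higher) without the filter, 9 (2 and 7) with a replicate block and 0 (0 and 0) with voom. Over libraries left out it ran from 11 to 474, with 3 to 240 higher and 8 to 249 lower. The NGP difference became 61 lower with RLE, 460 (182 and 278) with DESeq2 and 20 (8 and 12) with voom, and ran from 42 to 502, with 31 to 330 higher and 11 to 189 lower. The difference in spread was -0.053 with a prior of 5 counts, -0.197 at 50 CPM and -0.399 as a percentile range, and -0.062 to 0.119 with 1 RIP library left out. The distance between least and most enriched deciles was 0.979 at 4 log2 CPM, 0.121 by NGP deciles, and 0.893 to 0.990 with 1 library left out. Genes of low level were measured by few counts, in RIP libraries whose totals overlapped between treatments. Each STM2457 RIP library still detected fewer genes than any DMSO RIP library.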
